A study of Mus musculus with 19 samples.

Results

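The nuclear genes of the respiratory chain were taken by symbol: Nduf genes of the a, b, c, s and v series for complex I, Sdha to Sdhd for complex II, genes opening with Uqcr for complex III, and the Cox4 to Cox8 genes for complex IV. The rule found 66 members among the 24972 genes of the table, 36 in complex I, 4 in complex II, 8 in complex III and 18 in complex IV. RNA had been sequenced from 19 libraries of mouse plantaris tendon, a tendon of the hindlimb, in a study of the targeted deletion of Scx, which encodes scleraxis, a regulator of transcription in tendon cells. The 5 groups were Scx- tendons 14 days after a growth stimulus (n = 4), Scx+ tendons after 14 days (n = 4), Scx- tendons after 7 days (n = 4), Scx+ tendons after 7 days (n = 4) and Scx+ control tendons with no growth stimulus (n = 3). All 16 stimulated tendons came from mice given tamoxifen, and the control mice were given none, so stimulus and tamoxifen cannot be told apart in a comparison with the controls. No Scx- group without stimulus was analysed here. The alleles, the Cre line, the kind of stimulus, the strain and the age are not given in the sources used here. Nor is it said whether the libraries of a group came from separate animals, so the p-values measure the spread between these libraries, which may be technical.

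The respiratory chain sits in the inner mitochondrial membrane. Complex I (NADH dehydrogenase) and complex II (succinate dehydrogenase) pass electrons to ubiquinone, complex III (cytochrome bc1) passes them on to cytochrome c, and complex IV (cytochrome c oxidase) hands them to oxygen. Complexes I, III and IV pump protons, and ATP synthase uses the resulting gradient. A few complex IV subunits exist as tissue isoforms: Cox6a2, Cox7a1 and Cox8b are the forms of striated muscle, and Cox6a1, Cox7a2 and Cox8a are their widely expressed partners. Skeletal muscle fibres are rich in mitochondria, whereas tendon cells hold few.

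The values below are rescaled signal: the deposited gene values, which were scaled and are not whole counts, divided by a factor for each library (0.838 to 1.09). Deposited totals per library were 36580000 to 48470000 units in the stimulated groups and 67810000 to 79770000 units in controls. Scx itself lay at 1.66 to 5.84 in Scx- day 14 libraries, against 2096 to 5093 in Scx+ day 14 libraries. At day 7 it lay at 5.71 to 17.2 in Scx- libraries and 2773 to 8044 in Scx+ libraries, and it lay at 318.7 to 592.6 in the controls. Skeletal muscle transcripts were present in all 5 groups. A list of 28 muscle fibre genes, all of them tested and none at 0 throughout a group, took 12.3 ± 8.59% of the deposited signal in Scx- day 14, 4.67 ± 4.05% in Scx+ day 14, 3.58 ± 2.74% in Scx- day 7, 1.27 ± 1.30% in Scx+ day 7 (SD, n = 4 each) and 29.1 ± 2.83% in control libraries (SD, n = 3). Scx- day 14 replicates 1 and 2 stood apart from the other stimulated libraries. Their mean log2 muscle value was 17.23 and 17.44, above the controls at 16.44 to 16.93. Their muscle share of the deposited signal was 18.15% and 21.09%, below the controls at 27.01 to 32.29%. Results of the day 14 genotype comparison are given with and without them. They were picked by this muscle signal after the data had been seen, and no Scx+ library was left out to match. In a whole tendon, fewer cells of a type and less RNA per cell cannot be told apart.

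Promoters are shown for the members with the most different behaviour below: the muscle-type Cox8b and its partner Cox8a, Cox6a1, which was higher after the stimulus, and Uqcrc1, a core subunit of complex III that was lower. The sequences run from 250 bases before to 50 after the gene start (RefSeq, GRCm38.p6). Capitals mark matches on either strand to the nuclear respiratory factor 1 motif (GCGC and TGCGC with any 1 base between), to the ETS core CCGGAAG or to the E-box CAGCTG. The spans are chr7:140900397-140900696 (minus strand) for Cox8b, chr19:7217567-7217866 (minus) for Cox8a, chr5:115348909-115349208 (minus) for Cox6a1 and chr9:108936398-108936697 (plus) for Uqcrc1.
Cox8b: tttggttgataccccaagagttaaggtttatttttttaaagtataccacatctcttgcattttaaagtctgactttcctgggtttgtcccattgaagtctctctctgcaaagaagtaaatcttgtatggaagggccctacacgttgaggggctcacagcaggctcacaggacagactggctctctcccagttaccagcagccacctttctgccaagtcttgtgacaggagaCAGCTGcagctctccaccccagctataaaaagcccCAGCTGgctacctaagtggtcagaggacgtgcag
Cox8a: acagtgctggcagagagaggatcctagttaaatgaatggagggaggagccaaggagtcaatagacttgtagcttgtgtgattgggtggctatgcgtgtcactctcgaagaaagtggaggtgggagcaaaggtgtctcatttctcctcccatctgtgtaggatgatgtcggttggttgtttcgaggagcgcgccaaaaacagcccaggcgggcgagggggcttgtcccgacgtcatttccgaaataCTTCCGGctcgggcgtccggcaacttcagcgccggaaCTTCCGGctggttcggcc
Cox6a1: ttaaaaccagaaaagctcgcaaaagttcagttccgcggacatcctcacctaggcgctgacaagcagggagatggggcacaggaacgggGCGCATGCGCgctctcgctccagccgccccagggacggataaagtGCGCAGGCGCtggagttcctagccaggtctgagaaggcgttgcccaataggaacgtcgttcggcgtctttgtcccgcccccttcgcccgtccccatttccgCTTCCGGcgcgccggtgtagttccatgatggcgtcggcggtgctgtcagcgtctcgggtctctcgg
Uqcrc1: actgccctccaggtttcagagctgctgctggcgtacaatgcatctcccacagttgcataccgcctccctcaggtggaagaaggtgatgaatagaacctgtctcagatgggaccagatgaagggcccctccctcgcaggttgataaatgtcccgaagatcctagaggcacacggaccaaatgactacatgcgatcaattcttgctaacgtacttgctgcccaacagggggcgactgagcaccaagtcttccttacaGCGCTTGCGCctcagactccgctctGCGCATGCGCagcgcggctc
The Cox8b window held 2 E-box matches and no match to the other motifs, and the Cox8a window held 2 ETS matches. The windows of the pair Cox7a1 and Cox7a2, not shown, held no match to any motif searched, so 1 of the 2 muscle-type promoters in the table held an E-box. The Cox6a1 window held 2 nuclear respiratory factor 1 matches and 1 ETS match, and the Uqcrc1 window held 2 of the first kind. Of the 66 members, 53 had a promoter in the RefSeq table. Among these 53, 20.8% held the nuclear respiratory factor 1 motif, against 4.68% of all 27025 promoters. The ETS core stood in 20.8% of member promoters and 9.08% of all promoters, and the E-box in 9.43% and 16.2%. No member promoter held the MEF2 motif, which 1.86% of all promoters held. No motif overlaps another by its letters, and a match describes the letters only.

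Of the 66 members, 64 passed a filter on low values, which asked for 10 or more units of rescaled signal in 3 or more libraries. The other two, Cox7b2 and Cox8c, are testis-type complex IV subunits. Cox7b2 was at 0 in all but 3 libraries and reached 0.843, and Cox8c was above 0 in 1 library, at 1.80.

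Transcripts of the respiratory chain were lower in all 4 stimulated groups than in the unstimulated controls, in all 4 complexes. In Scx- day 14 against control, limma with Benjamini-Hochberg adjustment over 16625 genes called 58 of 64 members lower and 0 higher, where 18.3% of all genes were called lower and 25.5% higher. In Scx+ day 14 it called 59 lower and 2 higher, against 25% and 30.9% of all genes. In Scx- day 7 it called 60 lower and 2 higher, against 25.9% and 32.3% of all genes. In Scx+ day 7 it called 60 lower and 2 higher, against 27.5% and 33.8% of all genes. The median log2 difference of the members was -1.29, -1.87, -1.81 and -2.02 in that order of groups, while the median over all genes was 0.12, 0.15, 0.14 and 0.18. The 4 comparisons share the same 3 control libraries. With libraries scaled by their totals, the all-gene median moved to 0.58, 0.73, 0.81 and 0.83, and the calls over all genes to 43.2% higher and 8.15% lower, 50.5% and 12.7%, 53.7% and 11.8%, and 53.8% and 14.7%. Under that scaling 47, 59, 59 and 59 members were called lower and 3 higher in each group, and the member median less that of all genes was -1.40, -1.99, -1.93 and -2.17, against -1.42, -2.02, -1.95 and -2.20 with the rescaled signal.

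**Figure D1:**
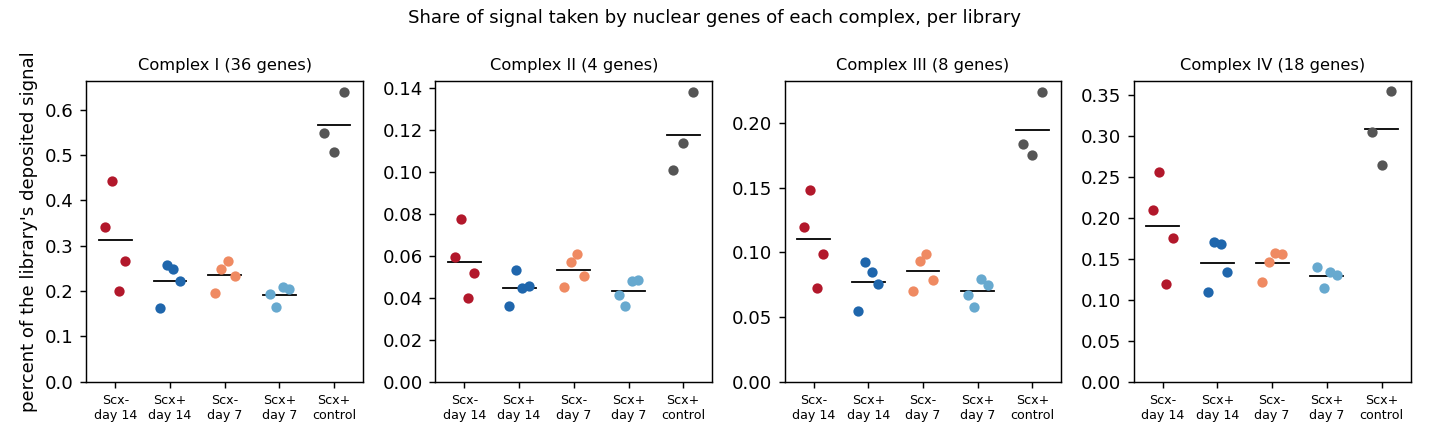
Share of each library's deposited signal, in percent, held by the members of each complex, in the 5 groups. Dots are libraries and bars are group means; the controls lay highest in all 4 complexes, and complex I took 0.508 to 0.639% of the signal in controls and 0.163 to 0.443% in stimulated libraries.

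The plot of signal shares by complex shows the same as a percent of each library's deposited total, which amounts to scaling by library totals. All 36 complex I, all 4 complex II and all 8 complex III members were called lower in each of the 4 comparisons. Of the 16 complex IV members tested, 10 were lower in Scx- day 14, 11 in Scx+ day 14, 12 in Scx- day 7 and 12 in Scx+ day 7. In Scx- day 14 libraries 56 of 64 members lay below every control, where 17.4% of all genes did and 20.7% lay above. In Scx+ day 14 libraries 59 did, where 25% of all genes lay below and 26.9% above. In Scx- day 7 libraries 60 did, against 27.3% below and 30.8% above, and in Scx+ day 7 libraries 60 did, against 28.9% and 33.4%.

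Complex I takes electrons from NADH. Ndufv1, the core subunit that binds NADH, had a rescaled signal of 7741, 10530, 3465 and 3681 in Scx- day 14 libraries, 2464, 3955, 3938 and 4996 in Scx+ day 14, 3430, 4626, 5002 and 2953 in Scx- day 7, 2619, 2504, 3672 and 3353 in Scx+ day 7, and 17170, 19010 and 21600 in controls. No stimulated library reached a control, and Scx- day 14 replicates 1 and 2 were the highest of the 16 stimulated ones. Ndufv1 was lower than in controls by limma, at -1.75 in Scx- day 14, -2.37 in Scx+ day 14, -2.29 in Scx- day 7 and -2.68 ± 0.33 in Scx+ day 7 (log2 ± SE, adjusted p = 4e-06 in that last group). Ndufc1, an accessory subunit, had the largest difference in complex I in each group. Its signal was 2343, 3358, 1099 and 1448 in Scx- day 14, 958, 1464, 1379 and 1226 in Scx+ day 14, 945.5, 1253, 1578 and 1008 in Scx- day 7, 1002, 898.2, 1043 and 1036 in Scx+ day 7, and 7056, 7265 and 9579 in controls. The groups did not overlap with the controls, and Ndufc1 fell, with log2 differences of -2.07 in Scx- day 14 (limma adjusted p = 3.8e-05) and -2.99 ± 0.28 in Scx+ day 7 (adjusted p = 3.3e-07). The core subunit Ndufs1, which carries iron-sulfur clusters, fell, with log2 differences of -1.56 in Scx- day 14 and -2.36 in Scx+ day 7. Over the 36 members, differences ran from -2.07 to -0.87 in Scx- day 14, -2.67 to -1.13 in Scx+ day 14, -2.75 to -1.26 in Scx- day 7 and -2.99 to -1.37 in Scx+ day 7.

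Complex II is also an enzyme of the citrate cycle and is wholly encoded in the nucleus. Sdha, its flavoprotein, had a rescaled signal of 11330, 16350, 6714 and 7290 in Scx- day 14 libraries, 5759, 8582, 6351 and 9623 in Scx+ day 14, 7240, 9620, 10780 and 6446 in Scx- day 7, 5456, 5376, 7739 and 7819 in Scx+ day 7, and 30590, 44130 and 46140 in controls. All stimulated libraries lay below all controls, and Scx- day 14 replicates 1 and 2 were again the highest among them. Sdha fell, with log2 differences of -2.02 in Scx- day 14, -2.42 in Scx+ day 14, -2.25 in Scx- day 7 and -2.61 in Scx+ day 7 (log2, called by limma in each). The membrane anchor Sdhd, at 5127, 7963, 3751 and 5500 in Scx- day 14, 3863, 5770, 5261 and 3814 in Scx+ day 14, 4039, 5051, 5607 and 5397 in Scx- day 7, 4866, 4071, 4595 and 4502 in Scx+ day 7, and 9276, 12300 and 14660 in controls, differed least. Its groups did not overlap with the controls either, and it fell, with log2 differences of -1.14 in Scx- day 14, -1.37 in Scx+ day 14, -1.25 in Scx- day 7 and -1.40 in Scx+ day 7. The iron-sulfur subunit Sdhb and the other anchor, Sdhc, lay between Sdha and Sdhd, at -1.26 and -1.19 in Scx- day 14 and -2.04 and -1.78 in Scx+ day 7.

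Complex III holds the core subunits Uqcrc1 and Uqcrc2 and the Rieske iron-sulfur protein Uqcrfs1. Uqcrc1 had a rescaled signal of 12910, 17390, 6655 and 6562 in Scx- day 14 libraries, 3574, 6613, 5674 and 7875 in Scx+ day 14, 5748, 8050, 9454 and 5593 in Scx- day 7, 4771, 4087, 6347 and 6231 in Scx+ day 7, and 28690, 35060 and 33930 in controls. No stimulated library overlapped with the controls. It fell, with log2 differences of -1.71 in Scx- day 14, -2.51 in Scx+ day 14, -2.21 in Scx- day 7 and -2.62 ± 0.33 in Scx+ day 7 (log2, limma adjusted p = 4.1e-06 in that last group). Uqcr11, a small subunit, had the largest difference of the complex in both Scx- groups, -1.87 at day 14 and -2.48 at day 7. Uqcrfs1 fell, with log2 differences of -1.18 in Scx- day 14 and -2.25 in Scx+ day 7, and Uqcrc2, with -0.95 in Scx- day 14 (adjusted p = 0.01) and -1.83 in Scx+ day 7. Median differences per complex were -1.36 (I), -1.22 (II), -1.28 (III) and -1.16 (IV) in Scx- day 14, and -2.21, -1.91, -2.23 and -1.61 in Scx+ day 7.

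**Figure D2:**
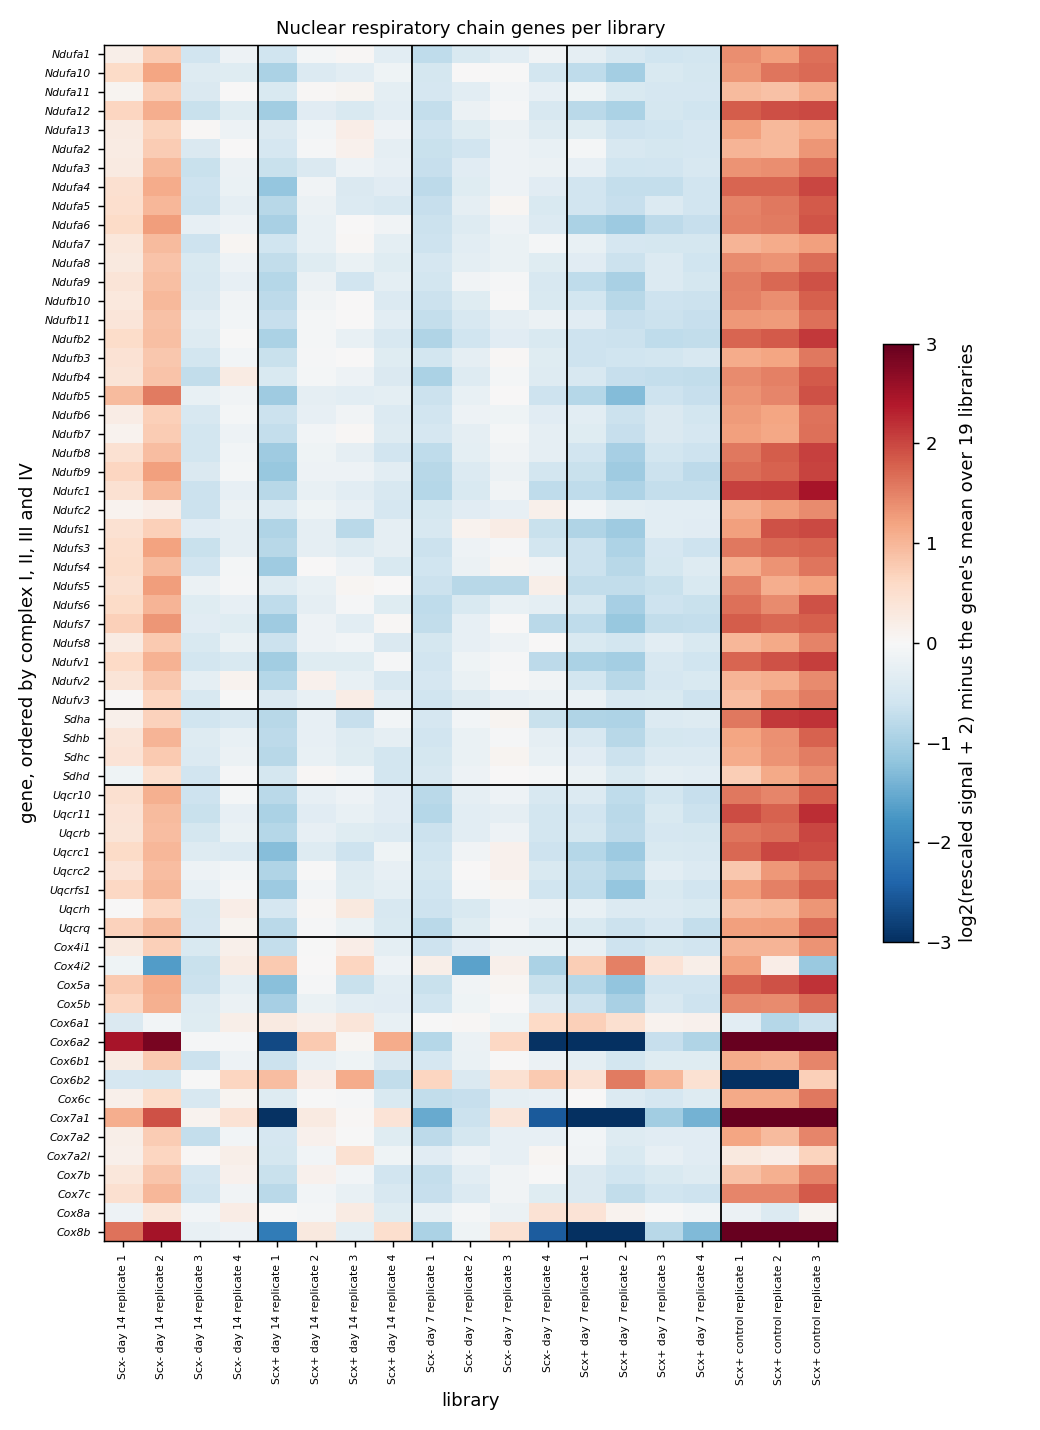
The members tested, other than 1 that is not reported here, by complex, in the 19 libraries: colour is log2 rescaled signal minus the gene's mean over libraries, clipped at 3 either way. The control columns are high for all members of complexes I to III, and Cox6a1, Cox8a, Cox4i2 and Cox6b2 of complex IV break the pattern.

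The muscle-type subunits of complex IV differed more from the controls than any other members did in every stimulated group but Scx- day 14, where Cox6a2 did not. Cox6a2 (chr7:128205435-128206387, minus strand, 3 exons, GENCODE M21) had a rescaled signal of 19490, 24970, 3386 and 3419 in Scx- day 14 libraries, 535.5, 6010, 3622 and 7484 in Scx+ day 14, 1923, 3102, 5381 and 442.1 in Scx- day 7, 262.4, 69.05, 2166 and 1864 in Scx+ day 7, and 30920, 34530 and 34720 in controls. Every stimulated library was below every control, and the spread within groups was wide. It fell, with log2 differences of -3.45 in Scx+ day 14 (limma adjusted p = 0.027), -4.10 in Scx- day 7 (0.0099) and -5.99 ± 1.23 in Scx+ day 7 (0.00063), while the difference of -1.94 in Scx- day 14 did not pass (0.21). Cox7a1 (chr7:30184144-30186078, plus strand, 4 exons) had a signal of 1048, 1876, 536.3 and 664.4 in Scx- day 14, 61.62, 596.7, 507 and 656.6 in Scx+ day 14, 171.8, 315.2, 638.4 and 84.4 in Scx- day 7, 60.78, 35.07, 239.5 and 182.8 in Scx+ day 7, and 7415, 7331 and 11050 in controls. It was the member furthest from the controls in Scx- and Scx+ day 14 and in Scx- day 7, with no overlap. It fell, with log2 differences of -3.20 in Scx- day 14 (adjusted p = 0.006), -4.65 in Scx+ day 14, -5.17 in Scx- day 7 and -6.38 ± 0.84 in Scx+ day 7 (1e-05). Cox8b (chr7:140898945-140900446, minus strand, 2 exons) had a signal of 2602, 4710, 717.5 and 752.3 in Scx- day 14, 195.1, 1033, 689 and 1199 in Scx+ day 14, 431.9, 769.6, 1160 and 146 in Scx- day 7, 63.64, 16.44, 470 and 332.2 in Scx+ day 7, and 13130, 13560 and 16780 in controls. Again no stimulated library reached a control, and Cox8b fell, with log2 differences of -3.17 in Scx- day 14 (adjusted p = 0.023), -4.49 in Scx+ day 14, -4.88 in Scx- day 7 and -6.94 ± 1.04 in Scx+ day 7 (4.3e-05).

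The widely expressed partners of these subunits each behaved in another way. Cox6a1 (chr5:115345642-115348981, minus strand, 3 exons) had a signal of 3723, 4710, 3909 and 5647 in Scx- day 14, 6061, 5613, 6505 and 4303 in Scx+ day 14, 4969, 5176, 4596 and 7606 in Scx- day 7, 8252, 7051, 5419 and 5457 in Scx+ day 7, and 4018, 2788 and 3192 in controls. All libraries of 3 stimulated groups lay above all controls, and Scx- day 14 overlapped with them. It rose by 0.75 in Scx+ day 14 (limma adjusted p = 0.0064), 0.73 in Scx- day 7 (0.0072) and 0.97 ± 0.21 in Scx+ day 7 (0.00085), and the difference was 0.43 in Scx- day 14 (0.11). Cox7a2 lay at 3859, 5718, 2066 and 3190 in Scx- day 14, 2395, 3710, 3349 and 2626 in Scx+ day 14, 1961, 2375, 2877 and 2841 in Scx- day 7, 3207, 2603, 2676 and 2688 in Scx+ day 7, and 7706, 6609 and 9319 in controls. It fell, with log2 differences of -1.17 in Scx- day 14, -1.39 in Scx+ day 14, -1.65 in Scx- day 7 and -1.49 in Scx+ day 7, with no overlap. Cox8a lay at 3479, 4953, 3656 and 4552 in Scx- day 14, 3881, 3720, 4617 and 3025 in Scx+ day 14, 3308, 3757, 3428 and 5264 in Scx- day 7, 5155, 4169, 3835 and 3660 in Scx+ day 7, and 3439, 2948 and 4112 in controls. Its groups overlapped with the controls, and its differences of 0.12 to 0.27 did not pass in any group. With libraries scaled by their totals, Cox8a passed as higher in all 4 groups, at 0.72, 0.73, 0.86 and 0.94, close to the all-gene medians of that scaling.

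**Figure D3:**
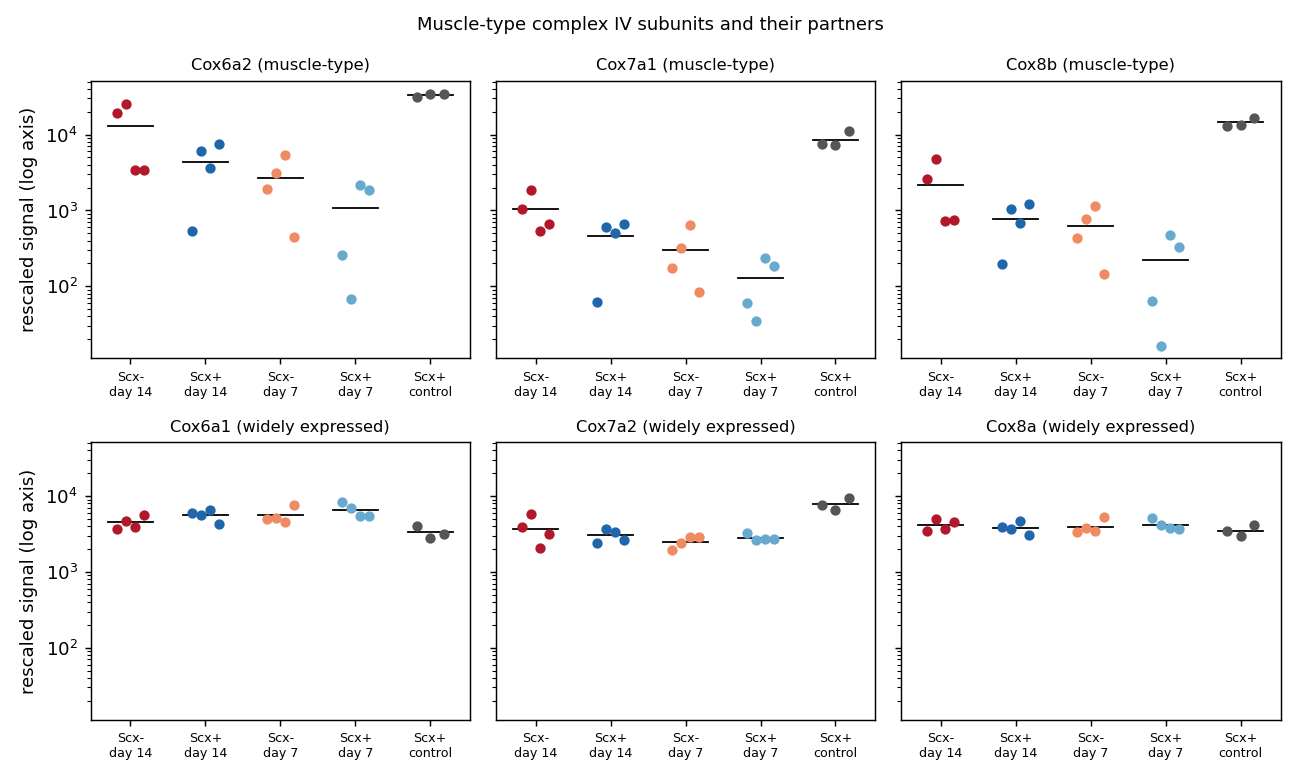
Rescaled signal per library, on a log axis, of the muscle-type subunits Cox6a2, Cox7a1 and Cox8b (top) and their widely expressed partners Cox6a1, Cox7a2 and Cox8a (bottom) in the 5 groups; lines are group means. The muscle-type subunits span 16.4 to 34720, whereas the partners stay between 1961 and 9319.

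The plot of the isoform pairs sets the spread of the muscle-type subunits beside the narrow range of their partners. Within a library the scaling cancels in the ratio of the pair, which compares signal and not protein. The log2 ratio of Cox6a2 to Cox6a1 averaged 0.97 ± 1.67 in Scx- day 14, -0.86 ± 1.88 in Scx+ day 14, -1.50 ± 1.86 in Scx- day 7, -3.62 ± 2.61 in Scx+ day 7 (SD, n = 4 each) and 3.34 ± 0.35 in controls (SD, n = 3). That of Cox7a1 to Cox7a2 averaged -1.92 ± 0.27, -3.15 ± 1.43, -3.40 ± 1.22, -4.79 ± 1.32 and 0.11 ± 0.15 in the same order. That of Cox8b to Cox8a averaged -1.36 ± 1.30, -2.56 ± 1.30, -2.98 ± 1.55, -5.15 ± 2.30 and 2.05 ± 0.14. All 3 ratios were higher on average in Scx- than in Scx+ tendons on both days. At day 14 the differences were 1.83 (p = 0.229), 1.22 (p = 0.0571) and 1.20 (p = 0.229), and at day 7 they were 2.12 (p = 0.2), 1.38 (p = 0.171) and 2.17 (p = 0.171), by exact two-sided permutation tests. Adjusted over the 6 tests, each p was 0.229, and the smallest p that 4 against 4 libraries allow is 0.0286. None of the 6 differences passed. Without Scx- day 14 replicates 1 and 2, the day 14 differences were 0.40 (p = 0.867) for Cox6a2 to Cox6a1, 1.04 (p = 0.467) for Cox7a1 to Cox7a2 and 0.085 (p = 0.933) for Cox8b to Cox8a, by the same exact test, whose smallest p is then 0.0667. The Scx- day 14 means without them were -0.47, -2.10 and -2.47.

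Other complex IV members also departed from the common direction. Cox6b2, a testis-type subunit near the filter, had a signal of 24.43, 23.99, 35.25 and 56.8 in Scx- day 14, 69.23, 40.93, 78.4 and 20.26 in Scx+ day 14, 56.5, 25.84, 49.27 and 62.41 in Scx- day 7, 48.51, 108.1, 73.01 and 49.23 in Scx+ day 7, and 2.01, 1.29 and 59.59 in controls. Control replicate 3 lay within or above the range of every stimulated group, and the other controls lay below all stimulated libraries. Cox6b2 rose by 2.37 in Scx+ day 14 (limma adjusted p = 0.015), 2.37 in Scx- day 7 (0.015) and 2.87 ± 0.78 in Scx+ day 7 (0.004), and differed by 1.91 in Scx- day 14 (0.055). Leaving out 1 library moved these 3 rises to between 1.62 and 3.73, 1.62 and 3.73, and 2.11 and 4.23, and without control replicate 1 or 2 the calls in Scx+ day 14 and Scx- day 7 were lost. With the muscle covariate none of the 3 passed, at 1.92 (adjusted p = 0.0655), 1.89 (0.0708) and 1.99 (0.131). Cox4i2, the isoform known from lung and from low oxygen, had low signal, 37.87 to 151.5 in Scx- day 14, 113.1 to 220.8 in Scx+ day 14, 40.47 to 142.6 in Scx- day 7, 143.4 to 363.9 in Scx+ day 7 and 57.57 to 300 in controls. The groups overlapped, and none of its 4 differences passed (-0.67, 0.22, -0.66 and 0.60). Its common counterpart Cox4i1 fell, with log2 differences of -0.95 in Scx- day 14 (adjusted p = 0.0045), -1.33 in Scx+ day 14, -1.46 in Scx- day 7 and -1.61 in Scx+ day 7. Cox7a2l, a factor that joins complexes III and IV into supercomplexes, fell, with log2 differences of -0.56 in Scx- day 7 (adjusted p = 0.024) and -0.68 in Scx+ day 7 (0.0073). It differed by -0.14 in Scx- day 14 (0.6) and -0.45 in Scx+ day 14 (0.063), and with libraries scaled by totals it differed by 0.34, 0.15, 0.14 and -0.0023 in Scx- day 14, Scx+ day 14, Scx- day 7 and Scx+ day 7, none of which passed. The subunits Cox5a and Cox5b, which have no muscle isoform, fell, with log2 differences of -1.72 and -1.24 in Scx- day 14 and -2.75 and -2.20 in Scx+ day 7.

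Per kilobase of transcript, Cox4i1 ranked 1 of the 66 members in all 4 stimulated groups and 4 in the controls. Ndufa4, named for complex I though its protein is now assigned to complex IV, ranked 1 in controls at 51010 ± 5661 units per kb (SD, n = 3). Cox6a2 and Cox8b followed there, at 49100 ± 3150 and 40250 ± 5542. In Scx+ day 7 tendons the same subunits ranked 52 and 60. Cox6a1 ranked 19 in Scx- day 14, 6 in Scx+ day 14, 5 in Scx- day 7, 2 in Scx+ day 7 and 56 in controls, at 11460 ± 2398 units per kb in Scx+ day 7 (SD, n = 4) and 5837 ± 1098 in controls. In controls Ndufa4 and Cox6a2 differed by less than the SD of either and cannot be ordered. The same held for Cox4i1 and the member ranked next in all stimulated groups but Scx- day 7. These were 20660 ± 6696 and 18850 ± 16320 (Cox6a2) in Scx- day 14, and 15700 ± 4014 and 13160 ± 3611 (Uqcrh) in Scx+ day 14. In Scx+ day 7 they were 12650 ± 1661 and 11460 ± 2398 (Cox6a1) (SD, n = 4 each).

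Some marker lists of other cell types differed from the controls, and others overlapped with them. Summed muscle signal was 2036000 to 12070000 in Scx- day 14, 135100 to 4623000 in Scx+ day 14, 176700 to 3131000 in Scx- day 7, 18160 to 1015000 in Scx+ day 7 and 17040000 to 23870000 in controls. A list of 10 adipocyte genes, cells that also hold mitochondria, summed to 7092 to 44270, 2888 to 23840, 1262 to 15090 and 1865 to 4515 in the stimulated groups in that order, and to 111500 to 168600 in controls. Ucp1, which defines brown fat, was at 0 in all controls. The tendon list of 10 genes summed to 680200 to 3565000 in Scx- day 14, 2804000 to 4254000 in Scx+ day 14, 1719000 to 2682000 in Scx- day 7, 2630000 to 4300000 in Scx+ day 7 and 192400 to 581000 in controls. Macrophage genes (8) summed to 46130 to 129500 in Scx- day 14, 74370 to 117500 in Scx+ day 14, 124000 to 300100 in Scx- day 7, 99120 to 151200 in Scx+ day 7 and 25500 to 57300 in controls. Cell cycle genes (8) summed to 4866 to 8239, 1304 to 12880, 12200 to 22360 and 12100 to 22350 in that order and to 1223 to 1602 in controls. Erythroid genes (6) summed to 102.7 to 788.1, 376.4 to 2107, 42.78 to 294.9 and 4718 to 21520 in that order and to 277.5 to 338.2 in controls, where Hemgn and Epb42 were at 0. Endothelial genes (6) summed to 11900 to 37360, 11920 to 25750, 9937 to 21750 and 15720 to 26070 in that order. In controls they summed to 14520 to 40460. Pericyte and smooth muscle genes (6) summed to 27790 to 50690, 32020 to 42230, 34560 to 41440 and 36800 to 51190. Their sum in controls was 39460 to 54810. The endothelial and pericyte lists overlapped with the controls in every group. The part of all these lists other than muscle in the result was not tested.

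The muscle signal was entered in the fit as a covariate, the mean log2 value of the 28 muscle genes. Among libraries of the same group, 20 of 64 members rose with it by limma and 0 fell, where 8.28% of all genes rose and 1.04% fell. All 3 muscle-type subunits were among them: Cox6a2 had a slope of 0.90 ± 0.03 (log2 per log2 ± SE, adjusted p = 3.1e-13), Cox8b 0.75 ± 0.04 (1.9e-10) and Cox7a1 0.59 ± 0.06 (5e-07). The other slopes that passed were far smaller, among them Cox5a at 0.21, Uqcrc1 at 0.20 and Ndufv1 at 0.20. The median slope of the 64 was 0.10. Cox6a1 had a slope of -0.10 that did not pass (0.067). With the 16 stimulated libraries alone, 17 members rose and 0 fell, against 8.1% of all genes.

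**Figure D4:**
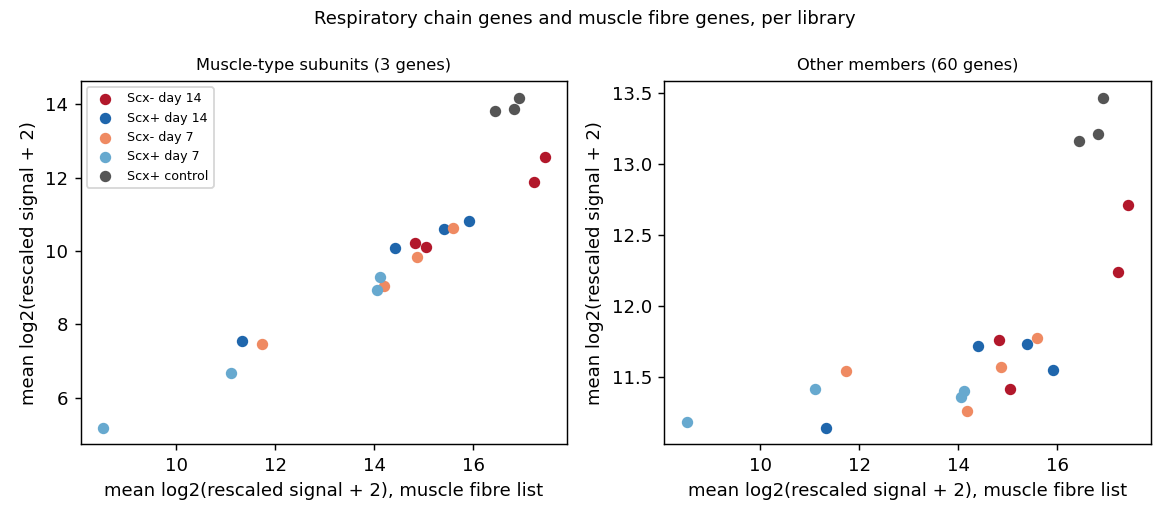
Each dot is a library: mean log2 rescaled signal of the 28 muscle fibre genes (x) against that of the 3 muscle-type subunits (left) and of the 60 other members without Cox6b2 (right), coloured by group. Scx- day 14 replicates 1 and 2 lie right of all controls and below them in both panels, at 12.24 and 12.71 for the 60 members, where controls lie at 13.16 to 13.47. By share of deposited signal the muscle genes took 18.15% and 21.09% in these 2 libraries, below the controls at 27.01 to 32.29%.

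With that covariate in the fit, 59 members were called lower than in controls in each of the 4 comparisons and 1, Cox6a1, higher in Scx+ day 14. Of all genes, 20.3% were then called lower and 26% higher in Scx- day 14, 21% and 26.1% in Scx+ day 14, 21.9% and 27.8% in Scx- day 7, and 16.4% and 21.2% in Scx+ day 7. The median difference of the members was then -1.22, -1.57, -1.59 and -1.55 in that order. The 3 muscle-type subunits passed in every comparison, with medians of -2.72, -2.63, -2.89 and -3.34. Cox6a1 lost its call at day 7, at 0.47 (adjusted p = 0.0516) in Scx- and 0.49 (0.106) in Scx+. The plot of the 2 panels sets each library beside its muscle signal without a model. How much of the difference from controls goes with muscle content was not tested beyond this covariate. The covariate lay at 16.44 to 16.93 in controls and at 14.83 to 17.44 in Scx- day 14. It reached only 15.92 in Scx+ day 14, 15.59 in Scx- day 7 and 14.12 in Scx+ day 7. For those last groups no library shares a muscle value with the controls. Their adjusted differences therefore extend the within-group slope across that gap and do not compare libraries of equal muscle signal. Scx- day 14 replicates 1 and 2, whose mean log2 muscle value lay above the controls, had 11.88 and 12.56 for the muscle-type subunits, against 13.82 to 14.18 in the controls. Their summed muscle signal lay below that of the controls, so the mean and the sum rank them differently. Without this pair, 58 members were still called lower in Scx- day 14 than in controls, with a median of -1.76, where 22.9% of all genes were lower and 28.9% higher, and 2 of the 3 muscle-type subunits passed.

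Deletion of scleraxis gave no call on any member by limma at either day. At day 14, Scx- against Scx+, 0 of 64 members passed in either direction, where 0.108% of all genes were called higher and 0.409% lower. The median difference of the members was 0.60 log2, 61 of them were above 0, and 33 had an unadjusted p under 0.05, all higher, where 7.22% of all genes were higher and 7.39% lower at that level. These 33 were 21 members of complex I, 2 of complex II, 7 of complex III and 3 of complex IV. Ndufb5, an accessory complex I subunit, had a signal of 8681, 13300, 3888 and 4214 in Scx- day 14 and 2162, 3755, 3646 and 3701 in Scx+ day 14. It alone of the 64 had groups that did not overlap, where 1.87% of all genes lay higher and 2.94% lower in that way, and it differed by 1.03 ± 0.32 (adjusted p = 0.19). The 2 Scx- libraries rich in muscle signal, replicates 1 and 2, were its highest. Without them the median of the members was 0.05, with 43 above 0 and 21 below, none had an unadjusted p under 0.05, and 0 passed, where 0.0243% of all genes passed in each direction. With the muscle covariate in place of leaving them out, the median was 0.35, 59 members lay above 0, 7 had an unadjusted p under 0.05 and 0 passed, where 0.0602% of all genes were called higher and 0.198% lower. The muscle-type subunits differed by 1.50 (Cox6a2, adjusted p = 0.53), 1.45 (Cox7a1, 0.40) and 1.32 (Cox8b, 0.52) with all libraries, and by 0.15, 0.83 and 0.20 in that order without the pair.

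**Figure D5:**
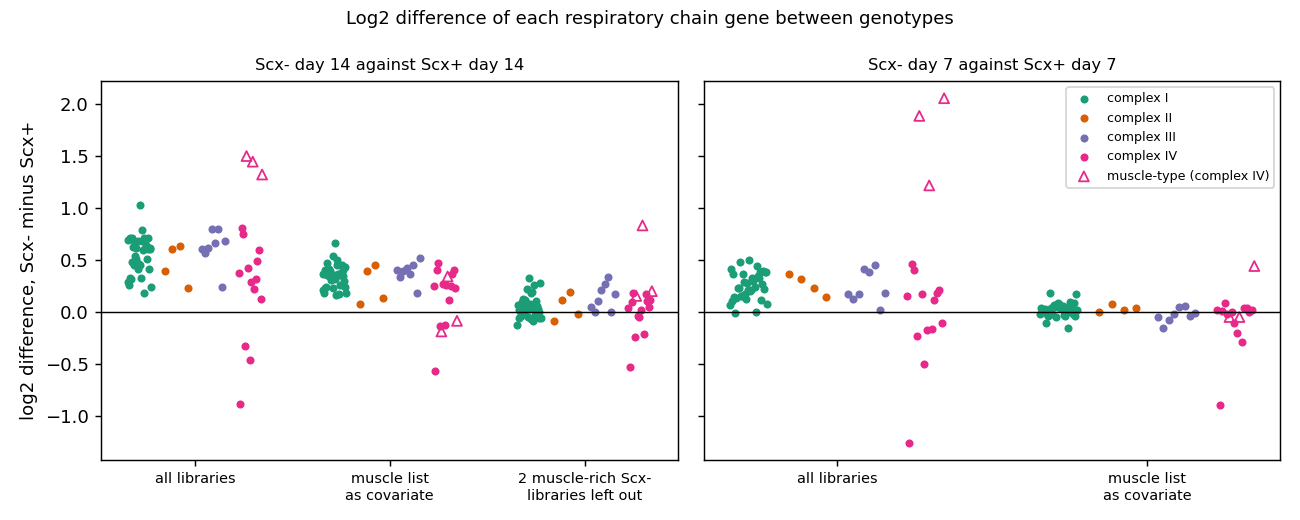
Log2 difference of each of the 64 members, Scx- minus Scx+, at day 14 (all libraries, with the muscle covariate, and without the 2 muscle-rich Scx- libraries) and at day 7 (all libraries, and with the covariate). Triangles are the muscle-type subunits; at day 14 the median of 0.60 in all libraries stands beside 0.35 with the covariate and 0.05 without the 2 libraries.

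At day 7, Scx- against Scx+, again 0 of 64 members passed, where 0.433% of all genes were called higher and 0.337% lower. The median difference was 0.22, with 57 members above 0 and 7 below. Only Cox8b, at 2.06 ± 0.97 (limma adjusted p = 0.69), and Cox4i2, at -1.26 ± 0.53 (0.57), had an unadjusted p under 0.05, where 3.84% of all genes were higher and 3.42% lower at that level. Cox4i2 lay at 142.6, 40.47, 141.5 and 64.31 in Scx- day 7 and 211, 363.9, 167.5 and 143.4 in Scx+ day 7. Its 2 groups did not overlap, narrowly, where 4.17% of all genes lay lower in that way, and Ndufa6 lay higher without overlap, where 3.71% of all genes did. With the muscle covariate the median of the members was 0.01, with 36 above 0 and 28 below, and 0 passed, where 0.162% of all genes were higher and 0.156% lower. The change of the genotype difference between the days, day 14 less day 7, had a median of 0.29 over the members. None of the 64 passed and none had an unadjusted p under 0.05, where 0.00602% of all genes were called higher and 0.012% lower, and 1.65% and 2.69% had an unadjusted p under 0.05 in those directions. Without Scx- day 14 replicates 1 and 2 that median was -0.17, so its direction changed when they were left out. That pair was picked by its high muscle signal and no Scx+ library was left out to match. The plot of genotype differences shows how far the medians of day 14 shift between these settings.

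Between the days, few members differed. In Scx- tendons, day 14 against day 7, limma called 2 of 64 members higher and 0 lower, where 1.4% of all genes were called higher and 3.86% lower. These were the accessory complex I subunits Ndufa13 and Ndufb2. Ndufb2 had a signal of 2814, 3608, 1480 and 1907 in day 14 libraries, against 1038, 1287, 1527 and 1402 in day 7 libraries, and rose by 0.83 ± 0.23 (limma adjusted p = 0.045), with overlap. For Ndufa13 the day 14 libraries held 6351, 8342, 5370 and 4683, against 3426, 4040, 4602 and 3984 in the day 7 libraries. These did not overlap, where 4.08% of all genes lay higher and 8.37% lower in that way, and Ndufa13 rose by 0.60 ± 0.17 (limma adjusted p = 0.044). At an unadjusted p under 0.05, 28 members were higher, against 9.85% of all genes, and 0 lower, against 12%. With the muscle covariate 0 members passed, where 0.523% of all genes were higher and 2.66% lower, and without Scx- day 14 replicates 1 and 2 again 0 passed, where 0.534% were higher and 1.26% lower. The median of the 64 members was 0.51 with all libraries, 0.31 with the covariate and 0.05 without the pair. In Scx+ tendons, day 14 against day 7, 0 of 64 passed, where 0.012% of all genes were called higher and 0.018% lower, with a median of 0.21 and 4 members at an unadjusted p under 0.05, against 4.22% of all genes higher and 6.35% lower. Ndufb4 and Ndufs5 lay higher at day 14 without overlap, where 3.78% of all genes lay higher and 6.11% lower in that way. With the covariate that median was -0.03.

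Of the genes that work with the respiratory chain, ATP synthase genes were all lower than in controls, and the other lists held members that did not pass. The shares of all genes called lower were 18.3% in Scx- day 14, 25% in Scx+ day 14, 25.9% in Scx- day 7 and 27.5% in Scx+ day 7. Those called higher were 25.5%, 30.9%, 32.3% and 33.8% in the same order. The list counts below use the rescaled signal only. All 15 ATP synthase genes tested fell in each of the 4 groups, with medians of -1.44 in Scx- day 14, -1.91 in Scx+ day 14, -1.86 in Scx- day 7 and -2.13 in Scx+ day 7. Of 41 assembly factors, which help to build the complexes, 24, 31, 32 and 37 fell in that order, and Cox18 rose in Scx- day 7 by 0.53. Of 24 genes of the mitochondrial ribosome and of import, 16, 20, 18 and 19 fell, among them Vdac1, the main channel of the outer membrane, at -1.84 in Scx- day 14 and -3.46 in Scx+ day 7. Of 12 electron carriers and related genes, 10, 10, 9 and 9 fell, with cytochrome c (Cycs) at -1.81 in Scx- day 14 and -2.34 in Scx+ day 7. Ndufa4l2, a paralogue of Ndufa4 known to be induced by low oxygen, was the 1 gene of that list that rose, by 1.57 in Scx- day 14, 2.81 in Scx+ day 14, 1.81 in Scx- day 7 and 2.41 in Scx+ day 7. Its mean signal was 4417, 9859, 5087 and 7646 in that order and 1408 in controls. Of 16 regulators of mitochondrial genes, 6, 9, 8 and 9 fell and 0 rose. The coactivator Ppargc1a fell in 3 groups, with log2 differences of -3.54 in Scx- day 7 and -5.07 in Scx+ day 7, and differed by -1.92 in Scx- day 14, which did not pass. The receptor Esrra fell in all 4 groups, at -1.48 in Scx- day 14 and -1.85 in Scx+ day 7. Gabpa, which binds ETS sites, did not pass in any group (0.21, 0.12, 0.04 and -0.02). Nrf1, which binds the nuclear respiratory factor 1 motif, fell, with log2 differences of -0.40 in Scx- day 14 and -0.32 in Scx+ day 14. With library totals the all-gene median moved further than that, from 0.12 to 0.58 and from 0.15 to 0.73. Nrf1 under that scaling is not given here, and its part in the member values was not tested. No gene of these 5 lists passed in Scx- against Scx+ at day 14, where 0.108% of all genes were higher and 0.409% lower, or at day 7, where 0.433% were higher and 0.337% lower.

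Likeness was measured to the mean log2 signal of the 60 members other than muscle-type and testis-type ones. The closest other genes over the 19 libraries were Atp5o (Pearson r = 0.998), Atp5j (0.995), Atp5j2 (0.993), Atp5l (0.992) and Prdx3 (0.991). The first 4 encode ATP synthase subunits and Prdx3 a mitochondrial peroxidase. By deviations within groups the closest were Atp5j (0.9902), Atp5o (0.9895), Psmb6 (0.9798), Atp5g2 (0.9781) and Mrpl53 (0.9775). The libraries share their group and their muscle content, so these values describe likeness only.

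Several members share sequence or position with other genes. In GENCODE M21, 13 of the 66 have another gene with a near-identical stretch, with Cox5b, Cox7a2l, Ndufb4 and Ndufs5 among those named above. On the opposite strand, 17 overlap with an exon of another gene, among them Cox6a2 (Itgad), Cox4i1 (Emc8), Ndufb5 (Mrpl47), Ndufb2 (Braf) and Ndufa13 (Tssk6). Whether strand was used in counting is not given in the sources used here, so reads of such pairs cannot be told apart. On the same strand, 3 members overlap with an exon of another gene, Ndufb2 (Gm42420) among them. There strand would not separate the reads.

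In the authors' deposited table of comparisons, which lists 64 members, 55 were lower in Scx- day 14 than in control, 59 in Scx+ day 14, 60 in Scx- day 7 and 60 in Scx+ day 7. The authors' deposited table gave 13.8%, 23.3%, 26.1% and 29.1% of all its genes as lower in that order, and 18.2%, 26.7%, 31.1% and 32.5% as higher. For Scx- against Scx+ the authors' deposited table called 0 members at day 14, where 0.382% of its genes were higher and 0.727% lower. At day 7 it called Ndufa6 higher (log2 0.49, adjusted p = 0.0381 in the authors' deposited table), where 2.39% of its genes were higher and 2.34% lower. For Scx- day 14 against day 7 the authors' deposited table called Cox6a2 (2.30), Cox7a1 (1.83) and Ndufb2 (0.96) higher, where 3.18% of its genes were higher and 5.86% lower. Cox6a2 and Cox7a1 did not pass by limma there. For Scx+ day 14 against day 7 the authors' deposited table called Ndufs5 higher (log2 0.53, adjusted p = 0.0318), where 1.91% of its genes were higher and 3.08% lower.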

How the data were processed

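The deposited values are a signal per gene, scaled by the authors and not whole (0.193% of values above 0 lie within 0.001 of a whole number), so whole reads and depth could not be recovered. STAR, DESeq2, FastQC and the build mm10 are named in the submitters' processing notes; versions and settings are not given there. The authors' deposited table holds log2 fold changes, their standard errors and adjusted p-values for each comparison and 1 mean signal over all libraries, and its settings are likewise not given in the sources used here.

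The members and lists were chosen with earlier results of these data known. Libraries were rescaled by the median ratio over 13703 genes above 0 in every library. Genes with at least 10 units in 3 libraries or more (16625) entered limma 3.58.1 (R 4.3.3) on log2(signal + 2), with all 5 groups in 1 fit, trend and robust moderation and Benjamini-Hochberg adjustment over all of them, at 0.05. The pseudocount understates differences of low genes. Count models were not used because the values are not counts. Isoform ratios within a library were compared by exact two-sided permutation. Named genes were fixed by role (isoform pairs and core subunits), with the largest change of each complex added; 1 of these genes is not reported here, though it is in the counts and medians. Signal per kilobase used the median length of a gene's coding transcripts in GENCODE M21. The fits were tested on simulated data. Other settings tried were library totals, the deposited scale, no filter, a pseudocount of 10, a replicate block, the muscle covariate, fits of only the groups compared, and leaving out each library. The E-box motif, the slope over the 16 stimulated libraries and the fit without Scx- day 14 replicates 1 and 2 were chosen after the data had been seen.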

Additional observations from a re-analysis of the deposited data

Results flagged for a closer look

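Of 284 sets of 4 libraries (each of the 64 members, the 4 complex shares and the 3 isoform ratios, in each stimulated group) examined for a library far from the rest, 12 passed Dixon's 95% limit on the gap to the nearest library over the whole range, a limit that chance passes in about 5% of sets. The sets share libraries and are not independent.

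In Scx+ day 7 replicate 1, 7 members stood above the other libraries of the group. Cox7a2 had a rescaled signal of 3207 there, against 2603 to 2688. Ndufa11 had 2801, against 2139 to 2217, and Ndufa2 had 3962, against 2857 to 2943. The values were 2482 for Ndufa7, against 2008 to 2047, and 4180 for Ndufb11, against 3324 to 3427. Ndufb4 had 1241, against 1044 to 1075, and Ndufc2 had 1958, against 1675 to 1699.

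In Scx+ day 7 replicate 2, 3 members stood below the others: Ndufb8 at 2399, against 3098 to 3237, Ndufs7 at 1432, against 1874 to 1926, and Uqcrb at 2610, against 3115 to 3178. Ndufb5 had 2162 in Scx+ day 14 replicate 1, against 3646 to 3755 in the rest of that group. Ndufs5 had 975.3 in Scx- day 7 replicate 4, against 484 to 555.7.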

How the results depend on the processing

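The members called in Scx- day 14 against day 7 fell to 0 with library totals, on the deposited scale, with no filter, with the replicate block, with the muscle list as covariate, with only the groups compared, and without Scx- day 14 replicates 1 and 2, and the count ran between 0 and 21 when 1 library was left out (21 without Scx- day 14 replicate 3). In Scx- against Scx+ at day 14 it was 0 to 1 when 1 library was left out. When 1 library was left out, the difference in the Cox7a1 to Cox7a2 log2 ratio ran from 0.527 to 1.607 at day 14 and 0.934 to 1.929 at day 7, that of Cox6a2 to Cox6a1 from 0.948 to 2.39 and 1.117 to 2.99, and that of Cox8b to Cox8a from 0.616 to 1.609 and 1.275 to 2.889. For Cox7a1 to Cox7a2 at day 14, without Scx+ day 14 replicate 4 the difference was 1.607 (exact two-sided permutation p = 0.0286). The cause was not tested. Counts against control stayed within 55 to 62 of 64 when 1 library was left out. No called member value given above changed sign under the other settings except Cox7a2l in Scx- day 7, at 0.14 with library totals. For the genes that work with the respiratory chain, Nrf1 among them, the sign under those settings is not given here. Cox6a2 in Scx+ day 14 lost its call without Scx+ day 14 replicate 1 (-2.61, limma adjusted p = 0.0843) and without any 1 control (adjusted p 0.0526 to 0.0622). Cox8b in Scx- day 14 lost its call without Scx- day 14 replicate 3 or 4 or control replicate 2 or 3 (adjusted p 0.0523 to 0.0667), and Cox6b2 in Scx+ day 14 and Scx- day 7 without control replicate 1 or 2 (adjusted p 0.0835 to 0.106). With library totals, Cox4i1 (-0.476, adjusted p = 0.0838) and Uqcrc2 (-0.474, adjusted p = 0.111) in Scx- day 14 lost theirs. With only the groups compared, calls were lost against control for Cox4i1 (adjusted p = 0.0533) and Uqcrc2 (0.061) in Scx- day 14 and Cox6b2 in Scx+ day 14 (0.0896) and Scx- day 7 (0.0799), and for Ndufb2 in Scx- day 14 against day 7 (limma adjusted p = 0.161).

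Libraries of different groups share replicate numbers, but the correlations of their deviations ran from -0.428 to 0.35, so the numbers were not taken as pairs. With the replicate block, 58 members were called in Scx- day 14, 60 in Scx+ day 14, 62 in Scx- day 7 and 62 in Scx+ day 7 against control, and 0 in Scx- against Scx+ at either day, and the calls of Cox6a2 in Scx+ day 14 against control (-3.42, adjusted p = 0.0514) and Ndufb2 in Scx- day 14 against day 7 (0.83, adjusted p = 0.0649) were lost. Read depth is unknown, so precision at low signal (Cox6b2, Cox4i2) cannot be stated.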
